A study of Mus musculus with 8 samples.

Results

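The platelet and megakaryocyte genes described here are 10 genes chosen by symbol (Vwf, Itga2b, Pf4, Gp1bb, Gp9, Gp5, Plek, Cd9, Itgb3 and Selp) of 32285 genes counted. They were read as raw counts of unique molecular identifiers (UMIs, 1 per captured transcript) in 6 single-cell RNA libraries of mouse cells from a gate for blood stem cells (Epcr+ and Kit+ with Sca-1, lacking lineage markers) after enrichment on c-Kit beads. The cells came from 2 Tppp3CreER LSLTdTomato pups at P2 that had received tamoxifen at P0, from 7 merged wild-type P2 mice (called the pool: separate bone marrow, liver and spleen libraries), and from wild-type mice at E19. The title of the E19 sample names bone marrow while its tissue field names fetal liver, so it is called E19 here. In the pups a Cre under control of Tppp3 switches on the red reporter tdTomato after tamoxifen, so the reporter marks cells that had Tppp3 activity at about P0 and their progeny. Tube 1 held tdTomato-positive cells of pup 1 (145 sorted) with tdTomato-negative cells of pup 2 (5500 sorted), and tube 2 held tdTomato-positive cells of pup 2 (180 sorted) with tdTomato-negative cells of pup 1 (5156 sorted). Hashtag antibodies told the pups and their bone marrow and spleen apart. Cells with at least 1000 genes, at least 2000 UMIs and at most 10% mitochondrial UMIs were kept, 37147 in all, and were split into 3 classes. Cells with 2 or more Mcpt8 UMIs were Mcpt8-positive (664 cells), cells with fewer and with 2 or more Mecom and Hlf UMIs together were Mecom/Hlf cells (19080 cells), and all others were the rest (17403 cells).

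Megakaryocytes are the bone marrow cells that shed platelets, and platelets stop bleeding by binding to the vessel wall and to each other. Vwf encodes von Willebrand factor, the ligand that tethers platelets to damaged vessels, and a Vwf reporter is known from adult mice as a mark of stem cells biased towards making platelets. Gp1bb, Gp9 and Gp5 encode subunits of the platelet receptor for that ligand, Itga2b and Itgb3 encode the CD41 and CD61 chains of the platelet fibrinogen receptor, and CD41 is also present on early blood stem and progenitor cells and on mast cells. Pf4 encodes the chemokine platelet factor 4 and Selp encodes P-selectin, both stored in platelet granules. Plek encodes the signalling adaptor pleckstrin, found in many white blood cells, and Cd9 a tetraspanin of platelets, stem cells and mast cells.

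The annotation of mm10/GRCm38 in GENCODE vM21 places the ligand gene Vwf (ENSMUSG00000001930) at chr6:125546774-125686679. Of its receptor subunits, Gp1bb (ENSMUSG00000050761) lies at chr16:18620317-18622403, Gp9 (ENSMUSG00000030054) at chr6:87778072-87779768 and Gp5 (ENSMUSG00000047953) at chr16:30307685-30310779. The integrin genes Itga2b (ENSMUSG00000034664) and Itgb3 (ENSMUSG00000020689) lie at chr11:102453297-102470122 and chr11:104608000-104670476. Pf4 (ENSMUSG00000029373) lies at chr5:90772435-90773383, Selp (ENSMUSG00000026580) at chr1:164115264-164150026, Plek (ENSMUSG00000020120) at chr11:16971206-17052381 and Cd9 (ENSMUSG00000030342) at chr6:125460266-125494791.

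Promoters of 8 of the 10 genes were in the RefSeq table used (build GRCm38.p6, 250 bases before to 50 after the start). The 4 below are shown as examples of a granule gene, an integrin gene and both receptor subunit genes among those higher in Mecom/Hlf cells with a Vwf UMI, as described further on. Cd9, also higher there, held 1 ETS-type and 0 GATA-type matches and is not shown. They are written 5′ to 3′ on the gene's strand in lower case. Capitals mark matches, on either strand, to the GATA-type motif AGATAA and to the ETS-type motifs AGGAAG and CGGAAG, the letters bound by the factor families of Gata1 and Fli1 that act in megakaryocytes. None of the marked matches overlapped another.
Itga2b promoter, GRCm38.p6 chr11:102469834-102470133, minus strand: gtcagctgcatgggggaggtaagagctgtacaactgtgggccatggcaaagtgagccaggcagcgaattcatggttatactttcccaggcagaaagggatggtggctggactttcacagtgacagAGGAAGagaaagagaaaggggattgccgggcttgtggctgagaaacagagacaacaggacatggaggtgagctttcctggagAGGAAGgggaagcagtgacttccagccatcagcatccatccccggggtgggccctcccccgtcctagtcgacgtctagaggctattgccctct
Pf4 promoter, GRCm38.p6 chr5:90772185-90772484, plus strand: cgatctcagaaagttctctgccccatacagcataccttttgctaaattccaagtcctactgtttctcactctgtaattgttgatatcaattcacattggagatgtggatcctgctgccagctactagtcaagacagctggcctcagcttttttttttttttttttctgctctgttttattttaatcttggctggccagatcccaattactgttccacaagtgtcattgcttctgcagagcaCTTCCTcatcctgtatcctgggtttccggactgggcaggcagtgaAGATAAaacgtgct
Gp9 promoter, GRCm38.p6 chr6:87777820-87778119, plus strand: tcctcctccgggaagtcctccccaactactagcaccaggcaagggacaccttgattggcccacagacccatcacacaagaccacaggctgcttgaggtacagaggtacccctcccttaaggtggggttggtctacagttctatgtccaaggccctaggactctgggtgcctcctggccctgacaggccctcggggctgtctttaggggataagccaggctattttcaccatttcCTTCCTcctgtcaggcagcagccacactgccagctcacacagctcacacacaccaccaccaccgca
Gp5 promoter, GRCm38.p6 chr16:30310732-30311031, minus strand: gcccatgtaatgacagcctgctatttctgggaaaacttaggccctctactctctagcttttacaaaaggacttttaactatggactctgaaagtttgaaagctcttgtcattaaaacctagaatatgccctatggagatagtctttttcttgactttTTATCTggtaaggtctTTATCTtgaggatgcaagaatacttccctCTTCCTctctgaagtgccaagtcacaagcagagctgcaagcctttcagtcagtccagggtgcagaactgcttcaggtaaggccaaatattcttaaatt
Gp5 held a pair of GATA-type matches, starting 93 and 77 bases before the start site, and 1 ETS-type match 48 bases before it. Pf4 held 1 GATA-type match inside the first 50 bases after the start and 1 ETS-type match 9 bases before it. Itga2b held ETS-type matches 125 and 43 bases before the start, and Gp9 held 1 at 16 bases before it. Among the 8 promoters, 7 held an ETS-type match and 2 a GATA-type match, against 46.5% and 11.2% of all 32851 promoters of the same length. A match here is a run of letters, not evidence of binding, and no library measured binding.

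Depth differed between the libraries. Median UMIs per kept cell ranged from 20120 to 20492 in the tubes and from 7438 to 8275 in the P2 pool libraries, against 6523 at E19, so levels are given as CPM, the UMIs of a gene over all UMIs of the summed cells on the usual CPM base, and shares of cells after thinning each cell to 5000 UMIs. Between 0 and 25 cell barcodes were shared by any pair of libraries, at most 0.321% of the smaller one. Doublets were not removed in the main values, and removal of the cells with the highest Scrublet scores was an alternative. All 8 stem cell markers of the list used, Mecom and Hlf among them, exceeded 10 CPM in the Mecom/Hlf cells of every library, with a summed level of 1637 to 3598 CPM, against 153 to 388 CPM in the rest. Batch 1 was the pool, batch 2 E19 and batch 3 the pups, so age and pup genotype cannot be told apart from batch. The labels name no separate litters, so p-values cover these sources only. edgeR shares its estimate of spread across genes, so an SE or p-value is not the own spread of a gene alone.

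**Figure D1:**
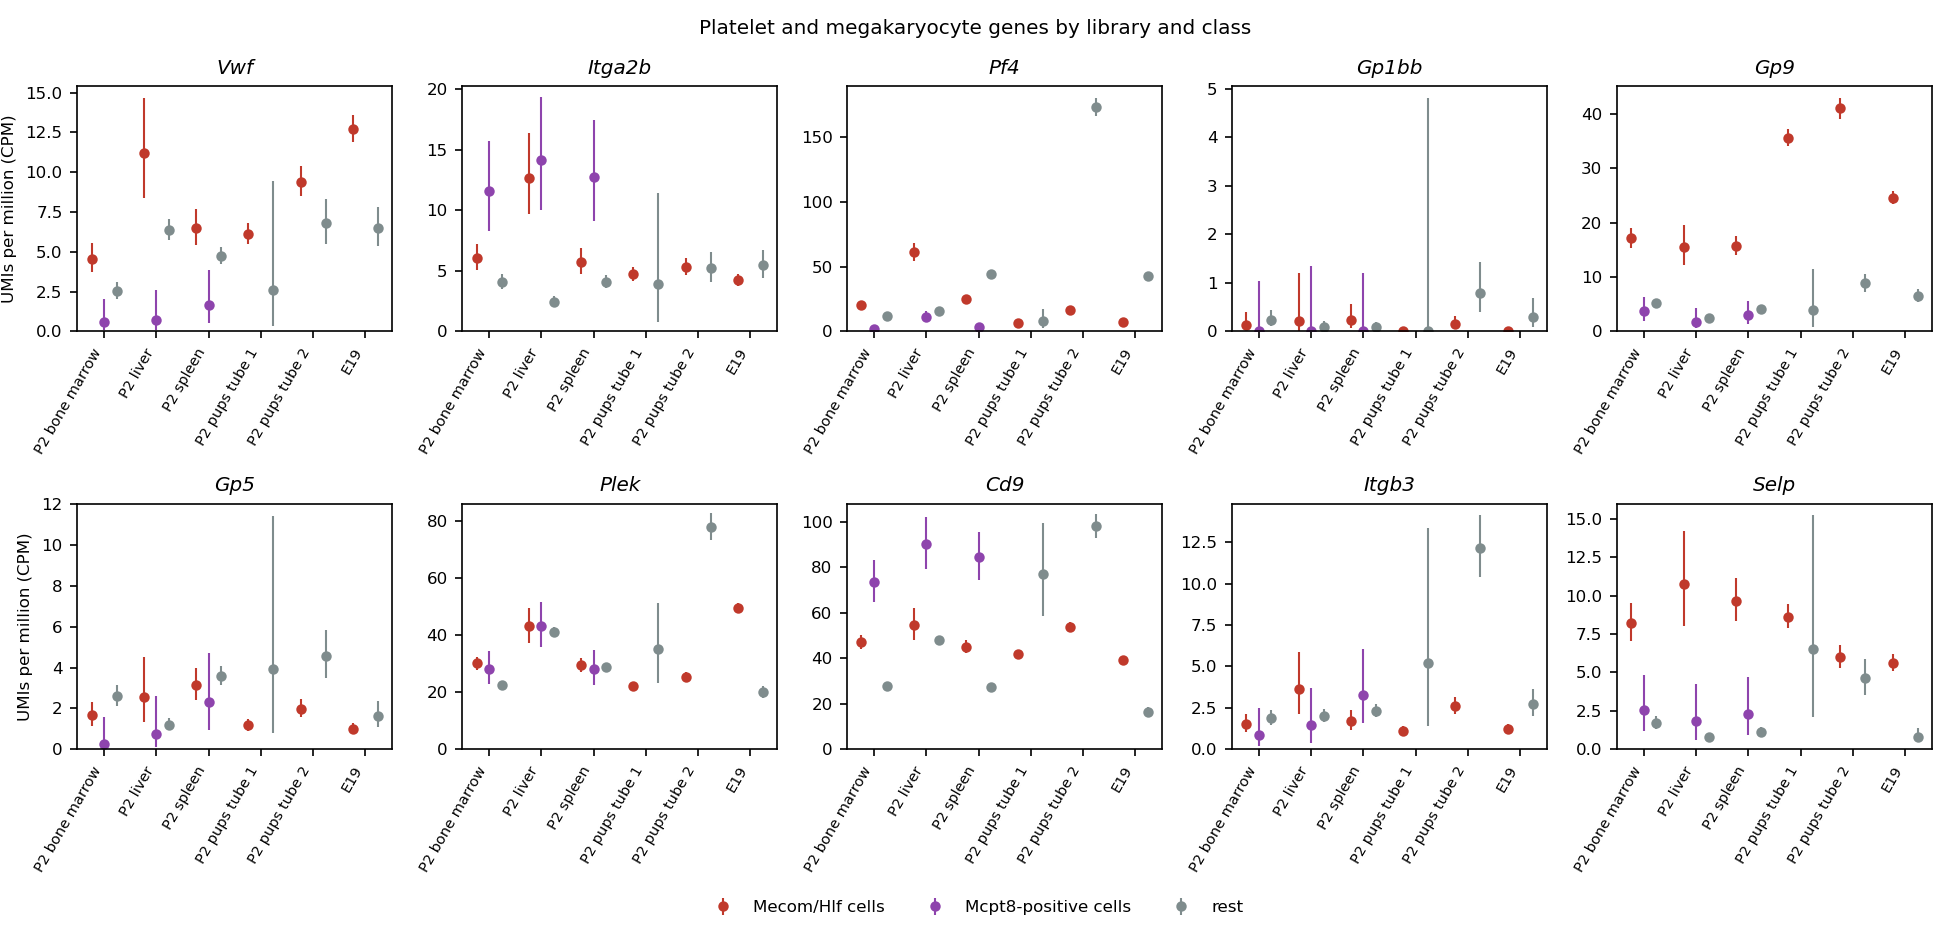
CPM (vertical axes) of each of the 10 genes in the 6 libraries (horizontal axes), for Mecom/Hlf cells, Mcpt8-positive cells and the rest, classes of at least 20 cells. Points are summed levels and bars are exact Poisson 95% intervals, which cover counting error only; Gp9 in Mecom/Hlf cells lies above the other classes in all 6 libraries, while Pf4 in the rest reached 173 CPM in tube 2, mostly from 1 cell.

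Vwf was detected in Mecom/Hlf cells of every library. Its level was 4.57 CPM in P2 bone marrow (95% Poisson interval 3.72 to 5.57), 11.2 CPM in P2 liver (8.37 to 14.7), 6.50 CPM in P2 spleen (5.44 to 7.70), 6.12 CPM in tube 1 (5.50 to 6.80), 9.41 CPM in tube 2 (8.49 to 10.4) and 12.7 CPM at E19 (11.9 to 13.6). In descending order the libraries were E19, liver, tube 2, spleen, tube 1 and bone marrow, and among neighbours in that order the intervals of tube 2 and spleen alone did not overlap. These intervals cover counting error only, and with 1 library per tissue and age there was no test. At 5000 UMIs per cell, 1.62% of bone marrow, 5.71% of liver, 2.18% of spleen, 3.52% of tube 1, 5.47% of tube 2 and 5.04% of E19 Mecom/Hlf cells had a Vwf UMI. Without thinning the shares were 3.30%, 9.14%, 4.23%, 9.46%, 15.9% and 7.36% in the same order of libraries.

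Rest cells in which B cell markers led, which should lack these genes, gave the level of background. In the 5 libraries with at least 20 such cells (tube 1 had fewer), Vwf was at 0 to 0.679 CPM, and 0% to 0.477% of those cells had a Vwf UMI at 5000 UMIs. Their median depth was 3455.5 to 7107 UMIs, against 6255 to 22159 UMIs in the Mecom/Hlf cells. Pf4 in the same B cell-marker cells was at 0 to 2.55 CPM and Itga2b at 0 to 1.22 CPM. The Mecom/Hlf levels of these 3 genes were above those values in all 6 libraries. Plek and Cd9, at 10.1 to 81.8 CPM and 12.1 to 44.3 CPM, were not low in the B cell-marker cells.

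The subunit genes of the von Willebrand factor receptor differed from each other. Gp9, the gene of the GPIX subunit, was at 17.1 CPM in P2 bone marrow, 15.5 CPM in liver and 15.7 CPM in spleen, at 35.6 and 41.0 CPM in tubes 1 and 2, and at 24.5 CPM at E19 in Mecom/Hlf cells. The pups' tubes were thus higher than the pool and E19, and the 3 tissues of the pool had overlapping intervals. Gp5, whose product sits beside the ligand-binding chain, was at 1.66, 2.58 and 3.13 CPM in P2 bone marrow, liver and spleen, at 1.17 and 1.98 CPM in the tubes and at 1.01 CPM at E19. Gp1bb was close to its floor everywhere: 0 to 6 UMIs per library in Mecom/Hlf cells, at most 0.244 CPM, and 0 UMIs in tube 1 and at E19.

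The integrin genes were low in Mecom/Hlf cells. Itga2b was at 6.05 CPM in P2 bone marrow, 12.7 CPM in liver, 5.72 CPM in spleen, 4.71 and 5.33 CPM in tubes 1 and 2 and 4.205 CPM at E19. The liver library, with 350 such cells and 59 Itga2b UMIs, was the high one, and its interval of 9.67 to 16.4 CPM overlapped no other. Of those UMIs 30 came from the 6 liver cells with 10 or more Pf4 UMIs, and without these liver stood at 6.38 CPM (4.27 to 9.17), against 4.205 to 5.37 CPM in the other libraries without such cells, with overlapping intervals. Without the 6 cells Vwf in liver stood at 7.48 CPM, against 8.96 CPM in tube 2. Itgb3 was also highest in liver, at 3.66 CPM on 17 UMIs, and at 1.10 to 2.59 CPM in the other 5 libraries, but its liver interval of 2.13 to 5.86 CPM overlapped that of tube 2 (2.12 to 3.13 CPM), and without the Pf4-rich cells liver and tube 2 stood at 2.20 and 2.18 CPM.

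The granule and adaptor genes had their own patterns. Selp was at 8.22, 10.8 and 9.68 CPM in Mecom/Hlf cells of P2 bone marrow, liver and spleen, at 8.64 and 5.99 CPM in tubes 1 and 2 and at 5.64 CPM at E19. Plek was at 30.1, 43.1 and 29.5 CPM in P2 bone marrow, liver and spleen and at 22.0 and 25.3 CPM in the tubes, against 49.5 CPM at E19. Cd9 spanned 41.8 to 54.7 CPM in the 5 P2 libraries, against 39.0 CPM at E19. Its range across libraries was therefore narrow beside that of Pf4, which ran from 6.65 CPM in tube 1 to 61.0 CPM in P2 liver. Of the 283 Pf4 UMIs in liver Mecom/Hlf cells, however, 253 came from the 6 cells with 10 or more. Without such cells Pf4 ran from 6.44 CPM in tube 1 to 10.6 CPM in P2 spleen, with liver at 6.60 CPM.

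In 5 of the 6 libraries most Pf4 UMIs sat in few cells. Of all Pf4 UMIs, cells with 10 or more held 73.5% in P2 bone marrow (11 cells), 66.5% in P2 liver (12 cells), 87.8% in P2 spleen (36 cells), 3.11% in tube 1 (1 cell), 86.7% in tube 2 (9 cells) and 55.2% at E19 (7 cells). This cut of 10 was chosen after the values were seen. Cells with 10 to 12 Pf4 UMIs numbered 1, 4, 6, 1, 0 and 1 in the same order of libraries, and cells with 5 to 9 numbered 2, 4, 11, 2, 10 and 3. In tube 2 more cells thus had 5 to 9 Pf4 UMIs than had 10 or more, and the 1 tube 1 cell above the cut had 12. A single tube 2 cell held 2017 Pf4 UMIs, the highest value of any cell, together with 59 Itga2b, 36 Vwf and 129 Cd9 UMIs; it was a rest cell. The share of Mecom/Hlf cells with any Pf4 UMI at 5000 UMIs differed far less between libraries, from 3.06% in tube 1 to 5.06% in P2 spleen, and from 4.69% at E19 to 13.6% in tube 2 without thinning.

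**Figure D2:**
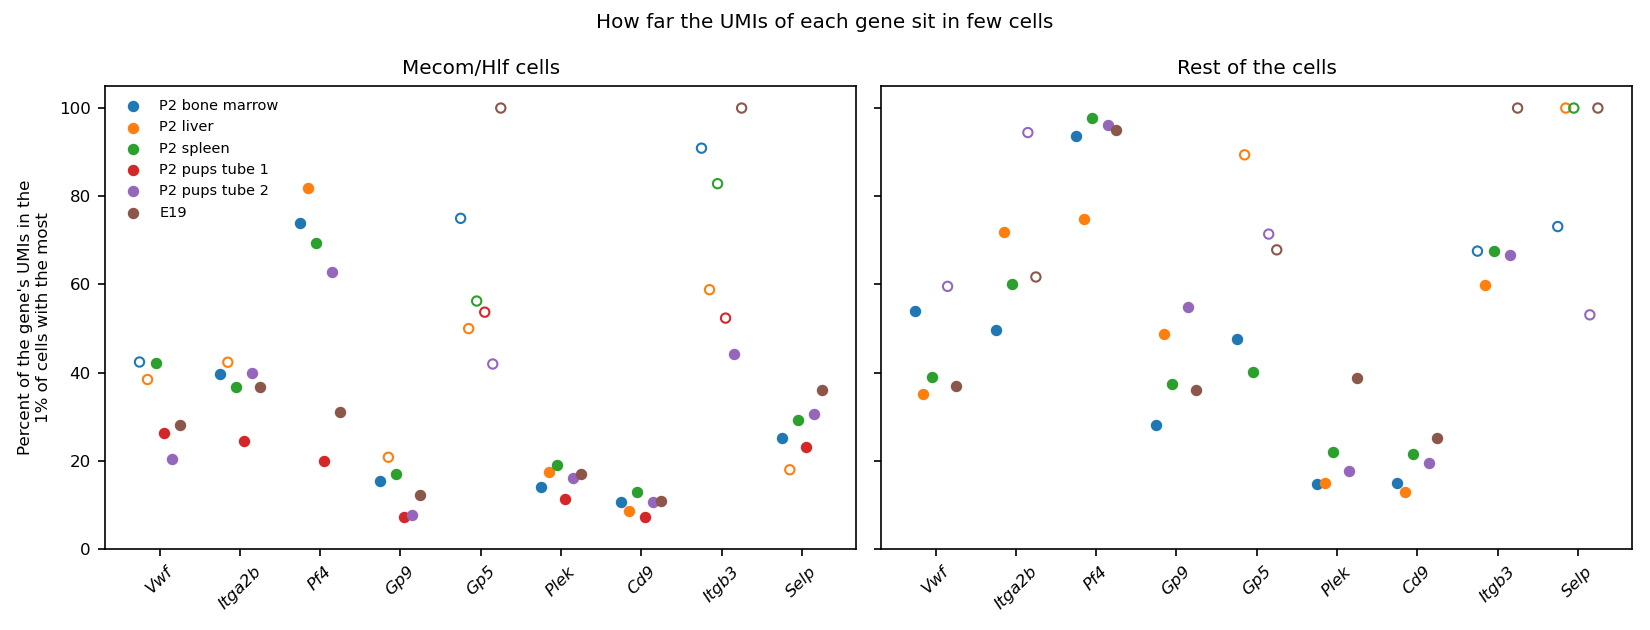
Percent of each gene's UMIs (vertical axis) held by the 1% of cells with the most UMIs of that gene, for 9 genes (horizontal axis) in Mecom/Hlf cells and in the rest, 1 point per library; classes under 100 cells are not drawn. Open circles mark genes with fewer than 100 UMIs, where a high percentage is reached with single UMIs; Pf4 stands at 62.8% to 82.0% in 4 libraries of Mecom/Hlf cells, while Cd9 stays between 7.36% and 13.001%.

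The cells with 10 or more Pf4 UMIs fell into 2 groups by their C1qa and C1qb UMIs. In every library they were deeper than the other cells. Their median was 12598 to 26957 UMIs by library, against 6521 to 20483 UMIs in the others, and the counts below were not matched for depth. In 68 of them C1qa and C1qb, complement genes of macrophages, had at most 2 UMIs, and these cells carried the other platelet genes: 67 had Plek, 65 Cd9, 58 Itga2b, 50 Vwf, 46 Gp9, 41 Itgb3, 29 Gp5, 14 Gp1bb and 14 Selp. Of the same 68, 61 had Rab27b, a granule-release gene of platelets, 65 had Cavin2, a caveolae gene, and 50 had Treml1, a platelet granule receptor gene. These 68 cells came from all 6 libraries, and 24 of them were Mecom/Hlf cells. The 1 such cell of tube 1, however, had 12 Pf4 UMIs and 1 UMI each of Gp9, Cd9 and Rab27b. It had none of the other platelet genes listed here.

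The other 8 cells with 10 or more Pf4 UMIs, 6 in tube 2, 1 in P2 liver and 1 at E19, had 35 to 135 C1qa and C1qb UMIs. None of the 8 had an Itga2b, Vwf, Gp9, Gp5, Gp1bb, Itgb3, Selp, Treml1 or Rab27b UMI, and all 8 had the macrophage markers Csf1r and Adgre1. Their Pf4 counts ran from 11 to 66 UMIs, and none was a Mecom/Hlf cell. These 8 cells held 8.61% of all Pf4 UMIs in tube 2, 1.21% at E19 and 0.937% in P2 liver, and cells with macrophage markers and fewer Pf4 UMIs are not counted in these shares.

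**Figure D3:**
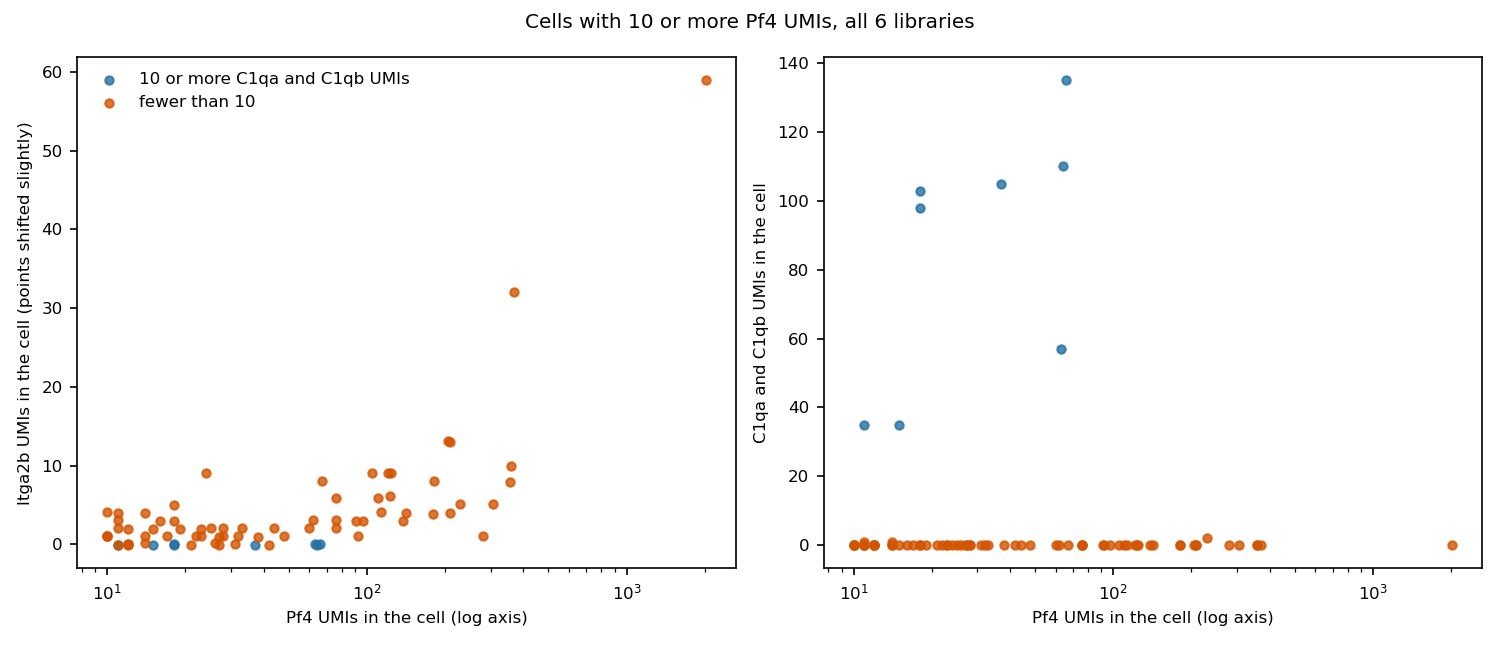
All cells with 10 or more Pf4 UMIs from all 6 libraries, 1 point per cell, with Pf4 UMIs on a log horizontal axis against Itga2b UMIs (left) and against C1qa and C1qb UMIs (right). The 8 cells with 35 or more C1qa and C1qb UMIs all lie at 0 Itga2b UMIs.

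Set against the rest of the sorted cells, Gp9 was the member that rose in Mecom/Hlf cells. It was at 16.3 CPM in Mecom/Hlf cells of the P2 pool, against 3.78 CPM in the rest. In pup 1 it was at 41.0 CPM in Mecom/Hlf cells against 8.34 CPM in the rest, in pup 2 at 35.6 CPM in Mecom/Hlf cells against 3.92 CPM (1 UMI) in the rest, and at E19 at 24.5 CPM in Mecom/Hlf cells against 6.49 CPM in the rest. Mecom/Hlf cells were higher in all 4 sources. A gene was called where its adjusted p was under 0.05, and here the log2 fold change was 1.93 ± 0.29 (SE, 4 sources, edgeR quasi-likelihood adjusted p = 0.00887). The 4 sources were the pool (3 tissues summed), the tdTomato-negative cells of each pup and E19. Of the 9 members that passed the filter on low counts (Gp1bb did not pass), 1 rose and 0 fell; over all 15583 genes tested 8.63% were called higher and 5.29% lower, 13.9% in all. Mecom, Hlf and Mcpt8 define the classes and were left out. The rest of pup 2 was 11 cells, and without pup 2 the Gp9 log2 fold change was 1.82 (edgeR adjusted p = 0.0409).

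Selp and Vwf were not called, and Selp did not run one way in all sources. Selp was at 9.11 CPM in Mecom/Hlf cells of the P2 pool, against 1.17 CPM in the rest. In pup 2 it was at 8.08 CPM in Mecom/Hlf cells against 0 in the rest, and at E19 at 5.64 CPM in Mecom/Hlf cells against 0.819 CPM in the rest, but in pup 1 it was at 5.79 CPM in Mecom/Hlf cells against 7.30 CPM in the rest. Its log2 fold change was 1.72 ± 0.75 (edgeR adjusted p = 0.174), and without pup 1 it was 2.68 (adjusted p = 0.00796). Vwf was at 6.07, 8.39, 6.43 and 12.7 CPM in Mecom/Hlf cells of the pool, pup 1, pup 2 and E19, against 4.76, 6.70, 0 and 6.49 CPM in the rest of the same sources, with a log2 fold change of 0.43 ± 0.43 (edgeR adjusted p = 0.559). The rest of pup 1 also held 58120 CPM of the 6 neutrophil markers and 5729 CPM of the 6 monocyte and macrophage markers, against 0 to 1482 and 82.3 to 123 CPM in the rest of the other sources. Their part in these results was not tested. The rest of pup 1 included the tube 2 cell with 2017 Pf4 UMIs, which held 36 Vwf and 16 Selp UMIs. Without cells of 10 or more Pf4 UMIs, the Vwf log2 fold change was 1.09 (edgeR adjusted p = 0.203). That of Selp was then 1.88 (edgeR adjusted p = 0.112), so neither was called.

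Pf4 was not called, and its values rested on few cells. It was at 26.4 CPM in Mecom/Hlf cells of the P2 pool, against 26.0 CPM in the rest. In pup 1 it was at 18.1 CPM in Mecom/Hlf cells against 348 CPM in the rest, in pup 2 at 6.61 CPM in Mecom/Hlf cells against 0 in the rest, and at E19 at 7.28 CPM in Mecom/Hlf cells against 42.8 CPM in the rest. The log2 fold change was -2.17 ± 0.91 (edgeR adjusted p = 0.158), and it turned to 0.51 (adjusted p = 0.553) once the cells with 10 or more Pf4 UMIs were left out. Without the pool it was called lower (-2.92, adjusted p = 0.0485). The other members, Itga2b (-0.18), Gp5 (-0.84), Plek (-0.78), Cd9 (-0.48) and Itgb3 (-1.64), were not called, with edgeR adjusted p from 0.159 to 0.867.

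Of 34 further platelet and megakaryocyte genes on a list, 31 were tested in the same comparison, and 7 rose and 3 fell in Mecom/Hlf cells. Among those that rose, F2rl3, a thrombin receptor gene, rose by 2.98 on the log2 scale, Mmrn1, of the granule protein multimerin, by 2.55, the transcription factor gene Gata2 by 2.52, Gng11 by 1.85, Mef2c by 1.06 and Runx1 by 0.79. Gata1, the transcription factor gene of erythroid cells and megakaryocytes, fell by 3.09, Clec1b, a platelet receptor gene, fell by 4.95 and Thbs1, of thrombospondin, fell by 4.52. The largest edgeR adjusted p among the genes called was 0.0325. The median log2 fold change of the 31 was 0.35 and that of all genes tested 0.03.

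In Mcpt8-positive cells Itga2b and Cd9 had higher levels than in the rest, and Vwf a lower one. These cells were compared in the P2 pool only, since the tubes and E19 held 3 to 13 of them, and 1 source allows no test. Itga2b was at 11.6, 14.1 and 12.8 CPM in Mcpt8-positive cells of bone marrow, liver and spleen, against 4.07, 2.44 and 4.11 CPM in the rest of the same tissues. Cd9 was at 73.5, 90.0 and 84.3 CPM in Mcpt8-positive cells, against 27.9, 48.0 and 27.2 CPM in the rest. Both genes were thus higher in Mcpt8-positive cells of all 3 tissues, and these cells carried 2134 to 3932 CPM of the 8 basophil and mast cell markers. Vwf, by contrast, was at 0.565, 0.726 and 1.64 CPM in Mcpt8-positive cells, against 2.53, 6.37 and 4.75 CPM in the rest, on 2, 2 and 5 UMIs. In the same order of tissues, Gp9 was at 3.67, 1.81 and 2.95 CPM in Mcpt8-positive cells, against 5.21, 2.44 and 4.06 CPM in the rest. Selp was at 2.54, 1.81 and 2.30 CPM in Mcpt8-positive cells, against 1.69, 0.814 and 1.15 CPM in the rest. Pf4 was at 1.98, 10.9 and 3.28 CPM in Mcpt8-positive cells, against 11.9, 15.6 and 44.6 CPM in the rest. No Mcpt8-positive cell had 10 or more Pf4 UMIs. Without such cells the rest stood at 2.05, 6.04 and 2.80 CPM of Pf4. Mcpt8-positive cells were then nearly level with the rest in bone marrow and not lower in liver and spleen.

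Within the rest, Vwf was also detected in cells led by other markers. In rest cells in which erythroid markers led, Vwf was at 6.89, 7.46, 5.69 and 15.0 CPM in P2 bone marrow, liver, spleen and tube 2, and at 7.03 CPM at E19. At 5000 UMIs per cell, 2.64% to 6.202% of them had a Vwf UMI. The same cells had low Plek and Cd9 outside tube 2, at 2.25 to 4.33 CPM and 4.32 to 6.61 CPM, and Selp at 0.0777 to 0.224 CPM. In tube 2 they held 344 CPM of Pf4, 34.3 CPM of Cd9 and 21.8 CPM of Plek, most of it in the 1 cell with 2017 Pf4 UMIs. Without that cell the 139 tube 2 cells stood at 9.09 CPM of Vwf, 3.09 CPM of Pf4, 12.7 CPM of Cd9 and 3.95 CPM of Plek, and E19 stood at 1.24 CPM of Plek without 1 Pf4-rich cell. Gp5 in the erythroid-marker cells was at 6.31, 3.42, 5.40 and 10.5 CPM in P2 bone marrow, liver, spleen and tube 2. It was at 1.39 CPM at E19, and at 5.66 CPM in tube 2 without the cell with 2017 Pf4 UMIs. These Gp5 levels were above those of Mecom/Hlf cells of the same libraries. Without Pf4-rich cells, E19 stood at 1.16 CPM (0.651 to 1.92), against 1.01 CPM (0.789 to 1.28) in Mecom/Hlf cells. Liver then stood at 3.42 CPM (2.48 to 4.59), against 1.54 CPM (0.619 to 3.17). The intervals overlapped in these libraries, and did not in P2 bone marrow, spleen and tube 2. The median depth of the erythroid-marker cells was 11796 to 39982 UMIs.

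A further group of Vwf-bearing cells had transcripts of Clec9a, a receptor gene known from type 1 dendritic cells; it was chosen after its values were seen and gets no test. In P2 liver, 132 of 519 rest cells with 2 or more Clec9a UMIs had a Vwf UMI, 25.4% (exact binomial 95% interval 21.7 to 29.4), against 3.06% (2.58 to 3.60) of 4573 rest cells with fewer. Median depths were 7773 UMIs in the Clec9a-bearing cells and 7637 UMIs in the others. In P2 spleen the shares were 29.2% of 96 Clec9a-bearing cells and 3.39% of 6314 others, and in P2 bone marrow 15.6% of 32 Clec9a-bearing cells and 2.10% of 3807 others. Vwf reached 32.2, 40.4 and 51.8 CPM in Clec9a-bearing cells of P2 bone marrow, liver and spleen, above the 4.57, 11.2 and 6.50 CPM of Mecom/Hlf cells in those tissues. Itga2b in the Clec9a-bearing cells was at 0, 1.297 and 1.52 CPM on 0, 6 and 1 UMIs, while Plek was at 134, 175 and 183 CPM. Of the Clec9a-bearing cells with a Vwf UMI, 0%, 9.09% and 7.14% were among the highest Scrublet scores, against 3.13%, 10.6% and 7.29% of all Clec9a-bearing cells of the same tissues. Over the 15 sums of a library and class with at least 20 cells, the genes whose log2(CPM + 1) followed Vwf most closely were Maml1, Rc3h1, Tcf20, Homer1 and Phlpp1 (Pearson r 0.904 to 0.916), and for Pf4 they were Bnip3l, Sri, Ranbp10, Sirt2 and Abhd16a (r 0.747 to 0.833), among 9003 genes. These sums share libraries, batches and depth.

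Mecom/Hlf cells with a Vwf UMI carried more of the other platelet genes. They were set against Mecom/Hlf cells without one, matched on total UMIs within the same library, up to 3 for each; 216 Vwf-positive cells came from the P2 pool, 202 from pup 1, 213 from pup 2 and 694 from E19. Of the 8 members tested apart from Vwf (Gp1bb was filtered out), 6 rose and 0 fell; over all 12552 genes tested 5.03% were called higher and 6.66% lower, 11.7% in all. Between 157 and 564 of the Vwf-positive cells of each source had exactly 1 Vwf UMI, so the negative cells include cells whose Vwf was missed.

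Gp5 and Gp9, the receptor subunit genes, rose, and both were higher in every source. Gp5 was at 7.26 CPM in Vwf-positive cells of the pool, against 1.94 CPM in Vwf-negative cells. In pup 1, pup 2 and E19 it was at 5.93, 2.75 and 2.63 CPM in Vwf-positive cells, against 2.10, 1.33 and 0.996 CPM in Vwf-negative cells. Its log2 fold change was 1.41 ± 0.25 (SE, 4 sources, edgeR adjusted p = 0.00246). Gp9 was at 36.3, 54.7, 53.2 and 28.7 CPM in Vwf-positive cells of the pool, pup 1, pup 2 and E19, against 12.4, 41.1, 40.2 and 21.4 CPM in their Vwf-negative cells, a log2 fold change of 0.50 ± 0.12 (edgeR adjusted p = 0.0139). Without pup 2 the Gp9 call was lost (0.56, edgeR adjusted p = 0.056). Gp1bb had 6 UMIs in Vwf-positive cells of the pool and 6 in those of pup 1, and 0 in all Vwf-negative cells compared.

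The integrin genes moved the same way. Itga2b was at 35.8, 13.6, 7.99 and 5.95 CPM in Vwf-positive cells of the pool, pup 1, pup 2 and E19, against 5.49, 3.29, 5.84 and 3.63 CPM in their Vwf-negative cells. Its log2 fold change was 1.46 ± 0.28 (edgeR adjusted p = 0.00406). The same few cells rich in Pf4 also held Itga2b: without cells of 10 or more Pf4 UMIs, the Vwf-positive cells stood at 11.5 CPM in the pool and 6.85 CPM in pup 1. Itgb3 was at 9.68, 4.24, 1.499 and 1.75 CPM in Vwf-positive cells of the pool, pup 1, pup 2 and E19, against 1.13, 1.82, 1.084 and 1.35 CPM in their Vwf-negative cells (log2 fold change 1.23 ± 0.37, edgeR adjusted p = 0.0447). Its call was lost without the pool (0.74, edgeR adjusted p = 0.216), without pup 2 (1.39, 0.0859) and with DESeq2 (adjusted p = 0.154). Cells of 10 or more Pf4 UMIs held 16 of the 20 Itgb3 UMIs of Vwf-positive cells in the pool. In pup 1 a single such cell held 17 of 20. Without such cells the Vwf-positive cells stood at 2.20 CPM in the pool and 0.642 CPM in pup 1, the latter below the Vwf-negative cells of pup 1.

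Pf4 had the largest fold change of the members, on few cells. It was at 360 CPM in Vwf-positive cells of the pool, against 6.46 CPM in Vwf-negative cells. In pup 1 it was at 87.5 CPM in Vwf-positive cells against 5.61 CPM in Vwf-negative cells, but in pup 2 at 7.74 CPM in Vwf-positive against 7.92 CPM in Vwf-negative cells and at E19 at 9.98 CPM in Vwf-positive against 6.38 CPM in Vwf-negative cells. The log2 fold change was 3.13 ± 0.56 (edgeR adjusted p = 0.00239), and DESeq2 did not call it (adjusted p = 0.204). In the pool, 17 of the 216 Vwf-positive cells held 700 of their 745 Pf4 UMIs, and in pup 1 a single cell held 370 of 413. Without cells of 10 or more Pf4 UMIs the log2 fold change was 0.67 (edgeR adjusted p = 0.0763), no longer called. Itga2b (0.78), Gp9 (0.39), Gp5 (1.07) and Cd9 (0.46) were still called then, with edgeR adjusted p of 0.000314 to 0.0148, and Itgb3 was filtered out.

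Cd9 was higher in all 4 sources and rose. It was at 101, 68.9, 59.95 and 44.6 CPM in Vwf-positive cells of the pool, pup 1, pup 2 and E19, against 48.6, 47.5, 37.0 and 36.0 CPM in their Vwf-negative cells (log2 fold change 0.57 ± 0.09, edgeR adjusted p = 0.000861). Selp was at 11.1, 8.90, 13.7 and 4.90 CPM in Vwf-positive cells of the pool, pup 1, pup 2 and E19, against 7.104, 5.33, 8.34 and 4.92 CPM in their Vwf-negative cells, so E19 alone was not higher. Its log2 fold change of 0.49 ± 0.17 was not called (edgeR adjusted p = 0.0749), and without E19 it was called (0.67, edgeR adjusted p = 0.0415). Plek was at 69.2, 29.2, 19.5 and 31.7 CPM in Vwf-positive cells of the pool, pup 1, pup 2 and E19, against 32.6, 23.5, 21.8 and 52.7 CPM in their Vwf-negative cells, higher in the pool and pup 1 and lower in pup 2 and E19. Its log2 fold change was -0.00 ± 0.19 (edgeR adjusted p = 0.997), and without the cells of 10 or more Pf4 UMIs Plek fell by 0.44 (edgeR adjusted p = 0.0063).

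**Figure D4:**
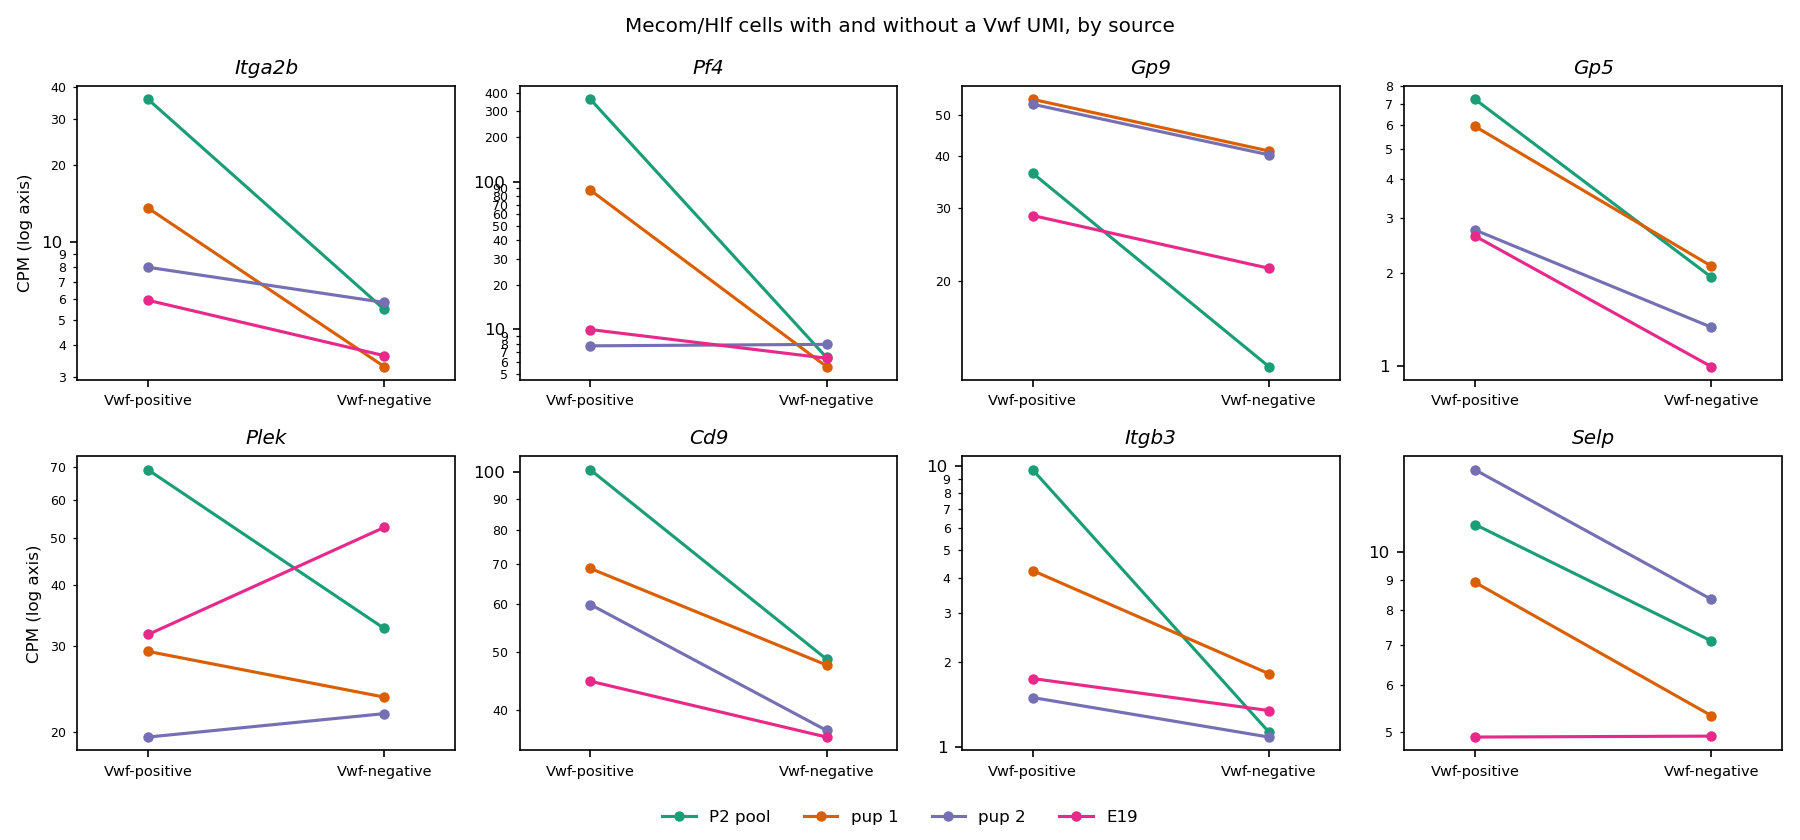
CPM (log vertical axes) of 8 genes in Mecom/Hlf cells with a Vwf UMI (left in each panel) and depth-matched cells without one (right), with 1 line per source: P2 pool, pup 1, pup 2 and E19. Gp9, Gp5, Cd9, Itga2b and Itgb3 are higher in Vwf-positive cells in all 4 sources. Of the Itgb3 UMIs in Vwf-positive cells of pup 1, however, 17 of 20 came from 1 Pf4-rich cell. The Pf4 line of pup 2 is nearly level, at 7.74 CPM in Vwf-positive cells against 7.92 CPM in Vwf-negative cells.

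Other genes of the platelet list moved with them. Of 26 tested, 13 rose and 0 fell in Vwf-positive cells, with a median log2 fold change of 0.31, against -0.01 over all genes. Without cells of 10 or more Pf4 UMIs 12 rose, 11 of them genes that rose with these cells included, and Mef2c fell; Treml1 (0.82, edgeR adjusted p = 0.15) and Fermt3 (0.12, 0.0674) were no longer called. Cavin2 rose by 3.24 ± 0.41 on the log2 scale (edgeR adjusted p = 0.000165). It was at 58.6, 10.4, 2.498 and 2.45 CPM in Vwf-positive cells of the pool, pup 1, pup 2 and E19, against 4.52, 0.140, 0.584 and 1.05 CPM in their Vwf-negative cells. The Pf4-rich cells held 84 of the 121 Cavin2 UMIs of Vwf-positive cells in the pool and 40 of 49 in pup 1, and without them the log2 fold change was 2.07 (edgeR adjusted p = 0.000486). Rab27b rose by 1.15 (edgeR adjusted p = 0.00076) and was higher in all 4 sources, at 60.002, 33.9, 26.7 and 44.3 CPM in Vwf-positive cells, against 11.1, 13.7, 14.8 and 26.5 CPM in Vwf-negative cells. Those cells held 73 of its 124 UMIs in the pool, and without them it rose by 0.81 (edgeR adjusted p = 1.12e-05). Transcription factor genes of the lineage, Gata1 (0.86), Gfi1b (0.76), Gata2 (0.59), Zfpm1 (0.56), Tal1 (0.40), Fli1 (0.32) and Runx1 (0.14), also rose, as did Treml1 (1.57), Gng11 (0.67) and Fermt3 (0.19), with edgeR adjusted p of at most 0.0493.

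Among all genes called in this comparison, those with the largest increases were Cavin2, Pf4, Meis2 (2.40), S100a16 (1.97) and Tns2 (1.91). Meis2, a homeobox gene, was at 5.32, 7.63, 9.49 and 16.5 CPM in Vwf-positive cells of the pool, pup 1, pup 2 and E19, against 1.94, 0.841, 1.58 and 3.22 CPM in their Vwf-negative cells. Those with the largest decreases were Ebf1 (-1.86), Ighm (-1.84), 1700003C15Rik (-1.74), Fcrl1 (-1.74) and Cpa3 (-1.70). S100a16 ran the other way in the pool, at 0.484 CPM (1 UMI) in Vwf-positive against 0.807 CPM (5 UMIs) in Vwf-negative cells. Cpa3 did so in pup 2, at 1.75 CPM in Vwf-positive against 0.751 CPM in Vwf-negative cells. Ebf1 is a B lineage transcription factor gene and Ighm the heavy chain gene of IgM. Ebf1 was at 24.2, 1.27, 1.75 and 4.38 CPM in Vwf-positive cells of the pool, pup 1, pup 2 and E19, against 68.6, 1.19, 0.417 and 30.3 CPM in their Vwf-negative cells, lower in the pool and E19 only. Of the 8 stem cell markers, 6 rose (Mecom, Meis1, Mllt3, Procr, Fgd5 and Esam) and 1, Hoxa9, fell. Of the erythroid markers 2 of 8 rose, Epor among them, and the summed erythroid level was 1790 CPM in Vwf-positive cells of the pool against 835 CPM in Vwf-negative ones, and 601 to 1359 CPM in Vwf-positive against 533 to 1248 CPM in Vwf-negative cells of the other sources; its part in the result was not tested.

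In sorted tdTomato-positive Mecom/Hlf cells, Plek was the member that rose, and the call did not hold under all settings. Plek was at 52.2 CPM in 33 tdTomato-positive cells, against 23.997 CPM in 1323 tdTomato-negative cells of pup 1, and at 40.0 CPM in 30 positive cells against 20.6 CPM in 2132 negative cells of pup 2, on 24 and 23 UMIs in the positive cells. Both pups ran the same way, and the log2 fold change was 0.93 ± 0.28 (SE, 2 pups, edgeR adjusted p = 0.0212). With 2 pups, the SE and p-values of this comparison rest on spread shared across genes, not on a gene's own spread between the pups. Of 9 members tested 1 rose and 0 fell; over all 13923 genes 0.984% were called higher and 3.33% lower, 4.31% in all. The call was lost with DESeq2 (adjusted p = 0.333) and without the pup term in edgeR (0.148). It was also lost when hashtags were called after subtracting background, where Plek was at 33.1 and 22.7 CPM in positive cells of pups 1 and 2, against 23.7 and 21.9 CPM in negative cells (log2 fold change 0.17, edgeR adjusted p = 0.892).

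The hashtag calls of positive cells were less clean than those of negative cells: in pup 2, in which 99.3% of negative cells had a Y-linked UMI, 13.3% of positive cells had an Xist UMI, against 0.372% of negative cells. Without Mecom/Hlf cells of pup 2 with an Xist UMI and of pup 1 with a Y-linked UMI (4 and 1 positive cells), a setting chosen after seeing the data, Plek rose by 0.94 (edgeR adjusted p = 0.0305), and the log2 fold changes of Vwf (1.36, 0.0671) and Selp (1.28, 0.132) were not called.

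Vwf was higher in tdTomato-positive cells of both pups. It was at 13.1 CPM (95% Poisson interval 4.79 to 28.4) in positive cells, against 8.39 CPM (7.44 to 9.43) in negative cells of pup 1, and at 24.3 CPM (13.3 to 40.8) in positive cells against 6.43 CPM (5.73 to 7.20) in negative cells of pup 2, on 6 and 14 UMIs in the positive cells. Those UMIs came from 4 and 6 cells. The intervals overlapped in pup 1 and not in pup 2, and the share of cells with a Vwf UMI was 12.1% of positive against 15.3% of negative cells in pup 1 and 20% of positive against 9.99% of negative cells in pup 2. Median depths were 12930 and 17938 UMIs in positive cells of pups 1 and 2, against 24338 and 20791.5 UMIs in negative cells. The log2 fold change was 1.29 ± 0.46 and not called (edgeR adjusted p = 0.0895). With the background-subtracted hashtags, which gave 56 and 84 positive cells, Vwf was at 17.7 and 16.3 CPM in positive cells of pups 1 and 2, against 9.27 and 6.06 CPM in negative cells, and was called (1.14, edgeR adjusted p = 0.00682). Under that rule 17.9% of positive cells against 16.4% of negative cells of pup 1 had a Vwf UMI, and 23.8% of positive against 9.44% of negative cells of pup 2, at median depths of 13404.5 and 22673 UMIs in positive cells against 23763 and 20424.5 UMIs in negative cells.

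Selp was at 17.4 CPM in tdTomato-positive cells of each pup, against 5.79 CPM in negative cells of pup 1 and 8.08 CPM in those of pup 2, on 8 UMIs in 4 cells and 10 UMIs in 2 cells, and was not called (1.21 ± 0.48, edgeR adjusted p = 0.156). A Selp UMI was found in 12.1% of positive against 10.3% of negative cells of pup 1. In pup 2 the shares ran the other way, 6.67% of positive against 12.3% of negative cells, and they were not matched for depth. Itga2b had 1 UMI in the positive cells of pup 1 and 0 in those of pup 2, against 5.52 and 4.66 CPM in negative cells. Pf4 was at 4.35 and 12.2 CPM in positive cells of pups 1 and 2, against 18.1 and 6.61 CPM in negative cells, so the pups ran opposite ways. Gp9 was at 45.7 and 45.2 CPM in positive cells, against 41.0 and 35.6 CPM in negative cells. Cd9 was at 52.2 and 38.2 CPM in positive cells, against 52.5 and 41.8 CPM in negative cells. Neither was called by edgeR, with log2 fold changes of 0.15 ± 0.24 for Gp9 and -0.17 ± 0.24 for Cd9. Gp5 and Itgb3 had 0 to 2 UMIs in the positive cells. Of the further platelet genes 1 of 28 rose, Mef2c (0.30, edgeR adjusted p = 0.00421), and 0 fell.

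Tube and sort were crossed between the pups, and neutrophil markers followed the tube. The 6 neutrophil markers summed to 6.53 CPM in positive cells (tube 1) against 1689 CPM in negative cells (tube 2) of pup 1, and to 92.1 CPM in positive cells (tube 2) against 6.39 CPM in negative cells (tube 1) of pup 2. The edgeR fit on both pups nevertheless called all 6 lower in positive cells, with a median log2 fold change of -3.52. A call in this comparison therefore does not require that both pups run the same way. The part of the neutrophil markers in the results on Plek, Vwf and Selp, whose CPM was higher in the positive cells of both pups, was not tested.

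**Figure D5:**
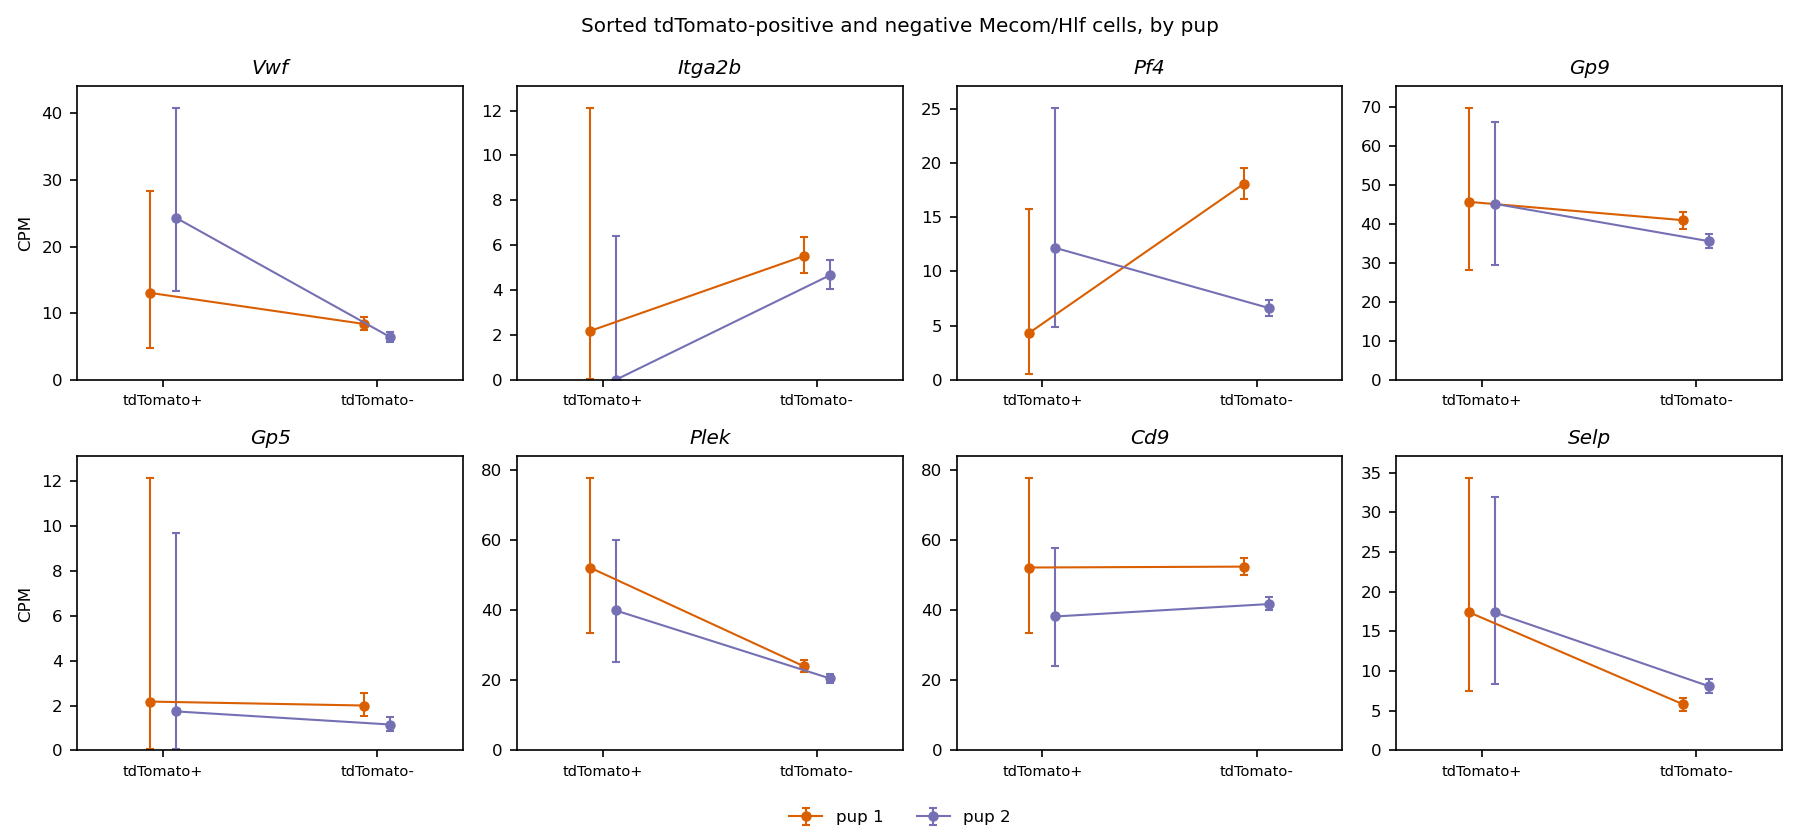
CPM (vertical axes) of 8 genes in tdTomato-positive (left in each panel) and tdTomato-negative (right) Mecom/Hlf cells of pups 1 and 2, with exact Poisson 95% intervals that cover counting error only. Plek, Vwf and Selp are higher in the positive cells of both pups, while the Pf4 lines cross.

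Between P2 bone marrow and spleen, no member was called in Mecom/Hlf cells. Pf4 came nearest, at 20.2 CPM in bone marrow against 25.1 CPM in spleen of the pool, at 6.98 CPM in bone marrow against 18.9 CPM in spleen of pup 1 and at 5.91 CPM in bone marrow against 7.63 CPM in spleen of pup 2. It was lower in bone marrow of all 3 sources, with a log2 fold change of -0.56 ± 0.17 (SE, 3 sources, edgeR adjusted p = 0.582), and it was called lower without the pool (-0.72, adjusted p = 0.024) and with no filter on low counts (-0.56, adjusted p = 0.00602). A single spleen cell held 370 of the 588 Pf4 UMIs of pup 1 spleen, and both of these calls include it. Without cells of 10 or more Pf4 UMIs pup 1 stood at 6.98 CPM in bone marrow against 7.03 CPM in spleen, and the log2 fold change was -0.48 (adjusted p = 0.638). Selp was also lower in bone marrow of all 3 sources, at 8.22, 4.93 and 7.78 CPM in bone marrow of the pool, pup 1 and pup 2, against 9.68, 5.86 and 8.52 CPM in spleen (-0.24 ± 0.15, adjusted p = 0.926). Vwf was at 4.57, 11.5 and 7.38 CPM in bone marrow, against 6.50, 8.14 and 5.05 CPM in spleen, so the pool and the pups ran opposite ways (0.10 ± 0.22, adjusted p = 0.99). Gp9 (0.03 ± 0.09) and Cd9 (-0.05 ± 0.08) had the narrowest errors among the members. Of the 9 members tested 0 were called by edgeR, 0 by DESeq2 and 1, Pf4, had an unadjusted p under 0.05; over all 14329 genes 0.0628% were called higher and 0.0209% lower, 0.0837% in all, and 863 had an unadjusted p under 0.05. Of 29 further platelet genes 0 were called.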

How the data were processed

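The authors deposited raw UMI counts per gene and cell barcode from droplet libraries of sorted cells, with hashtag counts in the same matrices of the tubes. Per the file headers these were made with Cell Ranger 7.0.0 (P2 pool), 7.1.0 (E19) and 8.0.1 (tubes); mm10 is the genome in the submitters' processing notes, which give version 7.0.0 for all. Kept cells held 55281289 to 86364215 UMIs per library. The reporter itself is not among the counted genes, so tdTomato status comes from the sort and the hashtags.

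Members and lists were chosen with earlier results of these data known. Counts were summed per source and class and tested in R 4.3.3 by the quasi-likelihood test of edgeR 4.0.16 (filterByExpr, then TMM, source as a block because both arms of a source come from the same animals, Benjamini-Hochberg over all genes, threshold 0.05), after a check on simulated data. A hashtag was called where it alone passed the 99th percentile of its background and was at least 3 times the next. Rest cells were described by the marker list with the most genes detected, at least 3. Thinning and exact 95% intervals were computed in Python 3.11.15. The alternatives were DESeq2 1.42.0, no filter, each source left out, no block, class cuts of 1 UMI, Mecom and Hlf 1 UMI each, Scrublet removal (0.8% of barcodes per 1000) and background-subtracted hashtags; removal of cells with 10 or more Pf4 UMIs, or with Xist or Y-linked UMIs against their pup, was chosen after seeing the data. Named genes were the members, the 34 further platelet genes, markers a result turned on, the 5 called genes with the largest change in either direction in the Vwf comparison, and the 5 genes most like Vwf and Pf4. The 2 hashtag-list samples were not used. Some marker genes are not reported here by name, and the list counts include them.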

Additional observations from a re-analysis of the deposited data

Results flagged for a closer look

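In 2 cases the log2 ratio at E19 had the opposite sign from those of all 3 P2 sources, and neither difference was tested. Plek, in Mecom/Hlf cells over the rest, had log2 ratios of -2.41 to -0.02 in the P2 sources and 1.29 (1.28508 unrounded) at E19. The value of -0.02 is that of the pool, which is level, so the opposite change was in the pups only. The rest of pup 2 was 11 cells. Selp, in Vwf-positive over Vwf-negative Mecom/Hlf cells, had log2 ratios of 0.61 to 0.69 in the P2 sources and -0.00475085 at E19, on 28 UMIs in Vwf-positive against 84 UMIs in Vwf-negative cells, which is level and not an opposite change. E19 is 1 library of its own batch, so age and batch cannot be told apart.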

How the results depend on the processing

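Sources are sets of animals that give both arms, so the source is the replicate block; without the replicate block the number of members called higher was 0 for Vwf-positive cells (6 with it) and 0 for tdTomato-positive cells (1 with it), Plek in the Vwf comparison was 0.12, and Gp9 between tissues was -0.010. Gp9 in Mecom/Hlf cells was called under all 12 alternatives (1.28 to 2.66). With sources left out in turn, members called in Mecom/Hlf cells ranged from 1 to 2 higher and 0 to 1 lower, between tissues from 0 to 1 lower, and in Vwf-positive cells from 4 to 6 higher. DESeq2 called 0 members higher in tdTomato-positive cells, and no filter on low counts gave 1 lower between tissues. Without cells of 10 or more Pf4 UMIs, 1 member was lower in Vwf-positive cells.

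Directions turned in members that were not called. Without those Pf4-rich cells, Itga2b (1.03), Pf4 (0.51) and Gp5 (0.10) turned positive in Mecom/Hlf cells, Itga2b between tissues was 0.015 and Pf4 in tdTomato-positive cells 0.27. With background-subtracted hashtags, Itga2b (1.10) and Gp5 (0.28) turned in Mecom/Hlf cells, Cd9 was 0.20 in tdTomato-positive cells and Itgb3 between tissues -0.000107. Itgb3 between tissues was also -0.10 with cuts of 1 UMI, -0.059 with Mecom and Hlf 1 UMI each and -0.12 after Scrublet removal. Plek in the Vwf comparison was 0.075 with DESeq2, 0.20 with cuts of 1 UMI and 0.063 after Scrublet removal. Over sources left out, ranges that crossed 0 were -0.51 to 0.17 for Itga2b and -0.97 to 0.059 for Cd9 in Mecom/Hlf cells, and -0.30 to 0.39 for Plek in the Vwf comparison. Between tissues they were -0.16 to 0.48 for Vwf, -0.35 to 0.21 for Itga2b, -0.0018 to 0.067 for Gp9, -0.92 to 0.31 for Gp5, -0.074 to 0.23 for Plek and -0.35 to 0.40 for Itgb3. The cause of these changes was not tested.

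Of the other values, 337 log2 fold changes counted as the same. Those with a test kept direction and side of the threshold, and those with no test lay within the SE of the main value. Of the CPM values in Mecom/Hlf cells, 18 left the main interval with class cuts of 1 UMI or Scrublet removal, and 102 did not. Of the shares of cells, 99 left it with thinning to 2000 UMIs or none, and 21 did not. Leaving out a pup left the tdTomato comparison with no residual degrees of freedom, so those are values with no test, and the fits on Mcpt8-positive cells were not run because 1 source held enough cells. The 33 and 30 tdTomato-positive cells of the pups and members with few UMIs limit precision.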
